A study of Mus musculus with 18 samples.

Results

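The insulin-like growth factor (IGF) axis was followed in whole lungs of mouse embryos through 10 genes, picked by their symbols from the 23420 genes listed for each sample. They are the ligands Igf1 and Igf2, the receptors Igf1r and Insr, the receptor adaptors Irs1 and Irs2, and the binding proteins Igfbp2, Igfbp3, Igfbp4 and Igfbp5. Lungs were taken at 14.5 days post coitus (dpc) from the Rptor, Tfam and Cox10 lines, and RNA-seq was run on 3 deficient and 3 control samples of each line, 18 in all. Deficient lungs were Rptor f/f; ShhCre/+, Tfam f/f; ShhCre/+ or Cox10 f/f; ShhCre/+, and the controls of each line were f/+; ShhCre/+ littermates. Every sample therefore carried ShhCre and at least 1 floxed allele. Cre made from the Shh locus acts in the lung epithelium, whereas the RNA came from the whole organ, mesenchyme and vessels included. Rptor codes for RAPTOR, the scaffold of mTOR complex 1 (mTORC1), a kinase complex that promotes growth. Tfam is required to keep and transcribe the mitochondrial genome, and Cox10 for the heme A of cytochrome c oxidase. The question for the IGF genes was which of them changed when epithelial mTORC1 or mitochondrial function was lost, and whether the lines differed.

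IGF1 and IGF2 are secreted growth factors that bind the IGF1 receptor and, for some isoforms, the insulin receptor. The activated receptors phosphorylate the adaptors IRS1 and IRS2, which recruit phosphoinositide 3-kinase, and the signal passes through AKT to mTORC1. The binding proteins hold the ligands outside the cell and can block or prolong their action, and proteases such as PAPP-A release the ligands again. Both ligands promote fetal growth, and Igf2 is an imprinted gene expressed mainly from the paternal allele.

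By GENCODE M21 (GRCm38), Igf1 lies at chr10:87858265-87937042 on the plus strand and Igf2 at chr7:142650766-142666816 on the minus strand. Igf1r lies at chr7:67952827-68233668 (plus) and Insr at chr8:3122061-3279617 (minus), and the adaptors at chr1:82233101-82291416 (Irs1, minus) and chr8:10984681-11008458 (Irs2, minus). Igfbp2 occupies chr1:72824503-72852474 (plus), Igfbp5 chr1:72857932-72874884 (minus), Igfbp3 chr11:7206086-7213923 (minus) and Igfbp4 chr11:99041244-99054392 (plus).

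Igfbp2 and Igfbp5 are neighbours on mouse chromosome 1, and their transcripts moved in opposite directions in Rptor-deficient lungs. By the RefSeq annotation of build GRCm38.p6, 5590 bases separate the ends of the genes, which lie on opposite strands with their 3′ ends towards each other. Their upstream sequences are shown because the pair is so close and moved oppositely. Each is the 250 bases before the first listed start, read from RefSeq on the strand of the gene, with GC boxes (GGGCGG on either strand) in capitals. The Igfbp2 sequence is chr1:72824230-72824479 on the plus strand and the Igfbp5 sequence is chr1:72874866-72875115 on the minus strand.
Igfbp2: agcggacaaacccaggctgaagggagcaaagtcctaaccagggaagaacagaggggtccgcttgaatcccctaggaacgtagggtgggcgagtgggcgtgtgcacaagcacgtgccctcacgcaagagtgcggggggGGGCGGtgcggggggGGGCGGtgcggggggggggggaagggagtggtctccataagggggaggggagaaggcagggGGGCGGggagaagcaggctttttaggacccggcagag
Igfbp5: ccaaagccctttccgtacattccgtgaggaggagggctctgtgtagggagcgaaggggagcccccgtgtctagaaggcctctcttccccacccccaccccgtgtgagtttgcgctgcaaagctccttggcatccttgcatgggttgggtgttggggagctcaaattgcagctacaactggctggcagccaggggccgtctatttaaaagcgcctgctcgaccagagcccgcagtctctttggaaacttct
The Igfbp2 sequence held 3 GC boxes and 67.2% G or C, whereas the Igfbp5 sequence held none and 58.8%. Of all 32851 upstream sequences of the same length, 32.7% held GGGCGG on either strand. Neither of the sequences shown held TATAAA, present in 12.4% of all, or GTAAACA, a sequence bound by FoxO factors and present in 3.17%. Upstream sequences were found for 9 of the 10 genes, all except Insr, and a match of letters is a description only. In Rptor-deficient lungs none of the other 3 tested genes within 500000 bases of the pair passed the test: log2 changes were -0.18 for Xrcc5, -0.073 for Smarcal1 and 0.082 for Rpl37a.

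Values are normalised reads, that is, reads rescaled by the authors with one factor per sample. They summed to between 27727202 and 29611064 per sample, and the lowest value of any of the 10 genes was 472 normalised reads (Igfbp3 in a Rptor control). The deleted genes gave no check of the labels, as their control and deficient values overlapped. The counts cover whole genes in whole lungs, where Cre acts in the epithelium only, and the part of this in the overlap was not tested. Rptor was 2197 to 2298 in controls and 1986 to 2442 in deficient lungs, Tfam 1057 to 1185 and 940 to 1107, and Cox10 753 to 824 and 743 to 829. Markers of lung cell types were measured beside the IGF genes. In the Rptor line 7 of 7 epithelial markers fell and their summed level went from 28092 to 29074 in controls to 11514 to 15004 in deficient lungs, while 6 of 10 mesenchymal markers rose and their summed level went from 197630 to 228080 to 389300 to 421690. Most of that sum came from Col1a1, Col1a2 and Col3a1, which together averaged 174680 in controls and 358560 in deficient lungs, whereas the transcription factor genes Tbx4 (-0.037), Tbx5 (0.025), Foxf1 (0.12) and Meox2 (0.091) did not pass. Endothelial markers rose in 4 of 5 cases, macrophage markers in 3 of 3 and mesothelial markers in 3 of 4, and 2 of 3 cartilage markers fell. Of 5 smooth muscle markers 3 fell and Acta2 rose (0.47), with overlapping sums of 16741 to 22436 in controls and 18402 to 26822 in deficient lungs, and of 3 liver markers Afp rose (1.44). In the Tfam line 3 of 7 epithelial and 3 of 5 smooth muscle markers fell and no mesenchymal or endothelial marker passed, while the heart muscle marker Nppa rose from 131 ± 50.5 to 611 ± 56.0 normalised reads (SD, n = 3) and the cartilage marker Col2a1 fell by 0.72 on the log2 scale. In the Cox10 line no marker of these lists passed, with epithelial markers at 21175 to 21489 in controls and 14226 to 18909 in deficient lungs. In whole lungs, fewer cells of a type and less RNA per cell cannot be told apart.

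**Figure D1:**
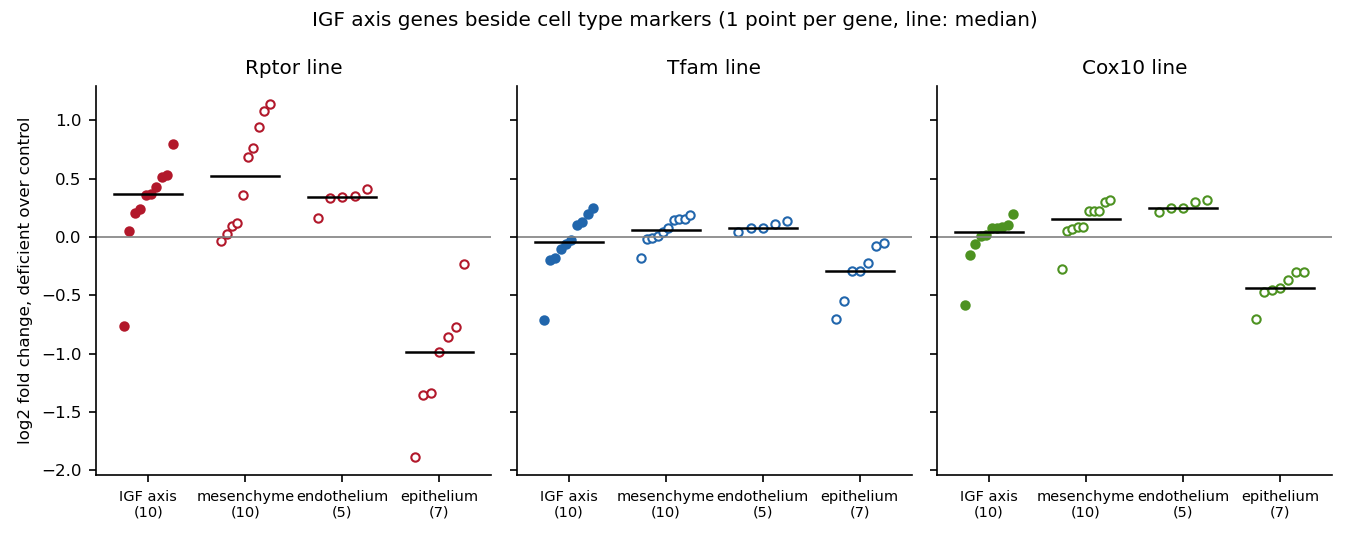
Each point is the log2 change of 1 gene, deficient over control, in the Rptor, Tfam and Cox10 lines (panels), for the 10 IGF axis genes (filled) and for mesenchymal, endothelial and epithelial markers (open); horizontal lines are medians. In the Rptor line the median of the IGF genes was 0.37, that of the mesenchymal markers 0.53 and that of the epithelial markers -0.98, and scaling the samples to the mesenchymal markers turned 7 of the 9 positive IGF values negative.

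Among the 10 genes Igf2 had by far the highest level per length, in every group. Expressed as normalised reads per kb of exon, the order in Rptor controls was Igf2 (10525 ± 900, SD, n = 3), Igfbp5 (3851 ± 299), Igfbp2 (3004 ± 162), Igfbp4 (2174 ± 163), Irs1 (416 ± 23.0), Igf1r (313 ± 34.4), Igf1 (287 ± 50.4), Igfbp3 (174 ± 31.3), Insr (168 ± 7.38) and Irs2 (105 ± 2.53). The ranges of Igf1r and Igf1 overlapped, as did those of Igfbp3 and Insr, and the other neighbours in this order were apart. Igf2 ranked between 3 and 16 among all genes of a sample by normalised reads. In the controls of all 3 lines the first 4 places were held by Igf2, Igfbp5, Igfbp2 and Igfbp4 in that order, with overlapping ranges of Igfbp2 and Igfbp4 in the Tfam and Cox10 controls. Deficient lungs of every line had Igfbp4 above Igfbp2, and the ranges of this pair were apart in the Rptor and Tfam lines and overlapped in the Cox10 line.

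Loss of Rptor was accompanied by changes in 7 of the 10 genes: Igfbp2 fell, and Igf2, Insr, Irs1, Irs2, Igfbp4 and Igfbp5 rose on the deposited scale (limma adjusted p below 0.05). Of all 14940 genes tested in this line, 34.8% passed in either direction. The median log2 change was 0.37 over the 10 genes and 0.0083 over all genes tested. The 3 deficient and 3 control values did not overlap for the same 7 genes, against 50.3% of all genes. With samples scaled to the mean of the mesenchymal markers instead, the median of all genes was -0.51 in this line and 71.9% of all genes passed. Of the 10 genes 4 passed on that scale, namely Igfbp2 and Igfbp5 in the same direction as before, Irs1 in the opposite direction and Igf1 as a fall. There the sign turned for Igf2, Insr, Irs1 and Irs2 among the risers. This scaling moves all genes of a line by about the same amount, so it leaves their order as it was. The rises stood beside the higher mesenchymal markers given above, whose part in the result was not tested.

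Igf2, the main fetal ligand, was measured at 54796, 60859 and 65045 normalised reads in Rptor controls and at 81455, 74024 and 76598 in Rptor-deficient lungs. All deficient values lay above all control values. The log2 change, deficient over control on log2(value + 1), was 0.36 (SE 0.079, 28.6% more; limma adjusted p = 0.00857), and -0.16 when scaled to the mesenchymal markers. A coding gene of the same strand (Gm49394) and the antisense gene Igf2os overlap Igf2 in the GENCODE annotation and are not rows of the tables, and no source used here says whether counting used strand. Igf1, which signals through the same receptor, was 3415, 2547 and 2552 in controls and 3297, 2994 and 2491 in deficient lungs of this line. Its groups overlapped (log2 change 0.049, 95% interval -0.26 to 0.35; limma adjusted p = 0.803), and the value was -0.47 (adjusted p = 0.00767) on the mesenchymal scale.

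The receptors were read less securely. Insr, the insulin receptor, was 2328, 2408 and 2206 in Rptor controls and 3654, 2835 and 2579 in deficient lungs. Its groups were apart, with a log2 change of 0.37 (SE 0.12; limma adjusted p = 0.0365) and -0.15 on the mesenchymal scale. Of 6 fits that each left out a sample, 2 kept Insr past the threshold: adjusted p was 0.0850, 0.0781 and 0.108 without control replicates 1, 2 and 3 and 0.0575 without deficient replicate 2. Igf1r, the main receptor of both ligands, was 5840, 5218 and 4685 in controls and 7750, 5905 and 5132 in deficient lungs. These ranges overlapped and the test was not passed (log2 change 0.24, SE 0.14; limma adjusted p = 0.221). With the replicate number as a block, which pairs each deficient lung with the control of the same number, Igf1r passed at an adjusted p of 0.0234 and an unchanged log2 change of 0.24, and it was -0.28 on the mesenchymal scale. Without deficient replicate 1 and with no block, its log2 change was 0.075 (adjusted p = 0.572).

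Both adaptors were higher in Rptor-deficient lungs on the deposited scale. Irs2 was 664, 682 and 651 in controls and 1158, 855 and 873 in deficient lungs. Deficient replicate 1 stood above the other two, and all 3 exceeded every control, with a log2 change of 0.52 (SE 0.12; limma adjusted p = 0.00991) that fell to -0.0019 on the mesenchymal scale. Irs1 was 3855, 3990 and 3578 in controls and 4417, 4513 and 4271 in deficient lungs. The groups were apart by a small margin: the log2 change was 0.21 (SE 0.057; limma adjusted p = 0.0225), it was -0.31 (adjusted p = 0.00566) on the mesenchymal scale, and 3 of 6 fits that left out a sample kept it past the threshold (adjusted p 0.0570 without control replicate 1, 0.0876 without control replicate 3 and 0.0725 without deficient replicate 2). The genes Gm9747 and 9530052E02Rik overlap Irs1 and Irs2 on the opposite strand.

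Of the binding proteins, Igfbp2 was the member with the lowest adjusted p. It was 5813, 5224 and 5607 in Rptor controls and 3519, 3114 and 3198 in deficient lungs. The highest deficient value was far below the lowest control value, and the log2 change was -0.76 (SE 0.066, 95% interval -0.91 to -0.61; limma adjusted p = 0.000151). On the mesenchymal scale it was -1.28, and without any single sample it stayed between -0.81 and -0.72. Its fall ran beside that of the epithelial markers given above, whose part in the result was not tested.

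Igfbp5, a binding protein found in the extracellular matrix, moved the other way. It was 21417, 22981 and 24995 in Rptor controls and 52478, 35414 and 35057 in deficient lungs. Deficient replicate 1 was highest by a wide gap, yet the other two were also above all controls. The log2 change was 0.80 (SE 0.15, 95% interval 0.47 to 1.13; limma adjusted p = 0.00399), it was 0.61 to 0.90 when a sample was left out, and it kept its sign on the mesenchymal scale at 0.28 (adjusted p = 0.0459). Igfbp4, which is cleaved by PAPP-A, was 9544, 8912 and 10348 in controls and 12971, 13135 and 15499 in deficient lungs. Its groups were well apart (log2 change 0.53, SE 0.084; limma adjusted p = 0.00208), and the value was 0.0095 on the mesenchymal scale.

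Igfbp3, which carries most IGF in adult serum, varied widely. It was 472, 508 and 656 in Rptor controls and 1055, 513 and 710 in deficient lungs, so that the groups overlapped (log2 change 0.43, SE 0.24; limma adjusted p = 0.193). Without deficient replicate 2 it passed (adjusted p = 0.0366). Deficient replicate 1 was the highest of its group for 8 of the 10 genes. Without it the log2 change was 0.61 for Igfbp5 and 0.38 for Irs2, and both still passed. Without it Insr was 0.23 and passed, while Igf1r (0.075) and Igfbp3 (0.16) did not.

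**Figure D2:**
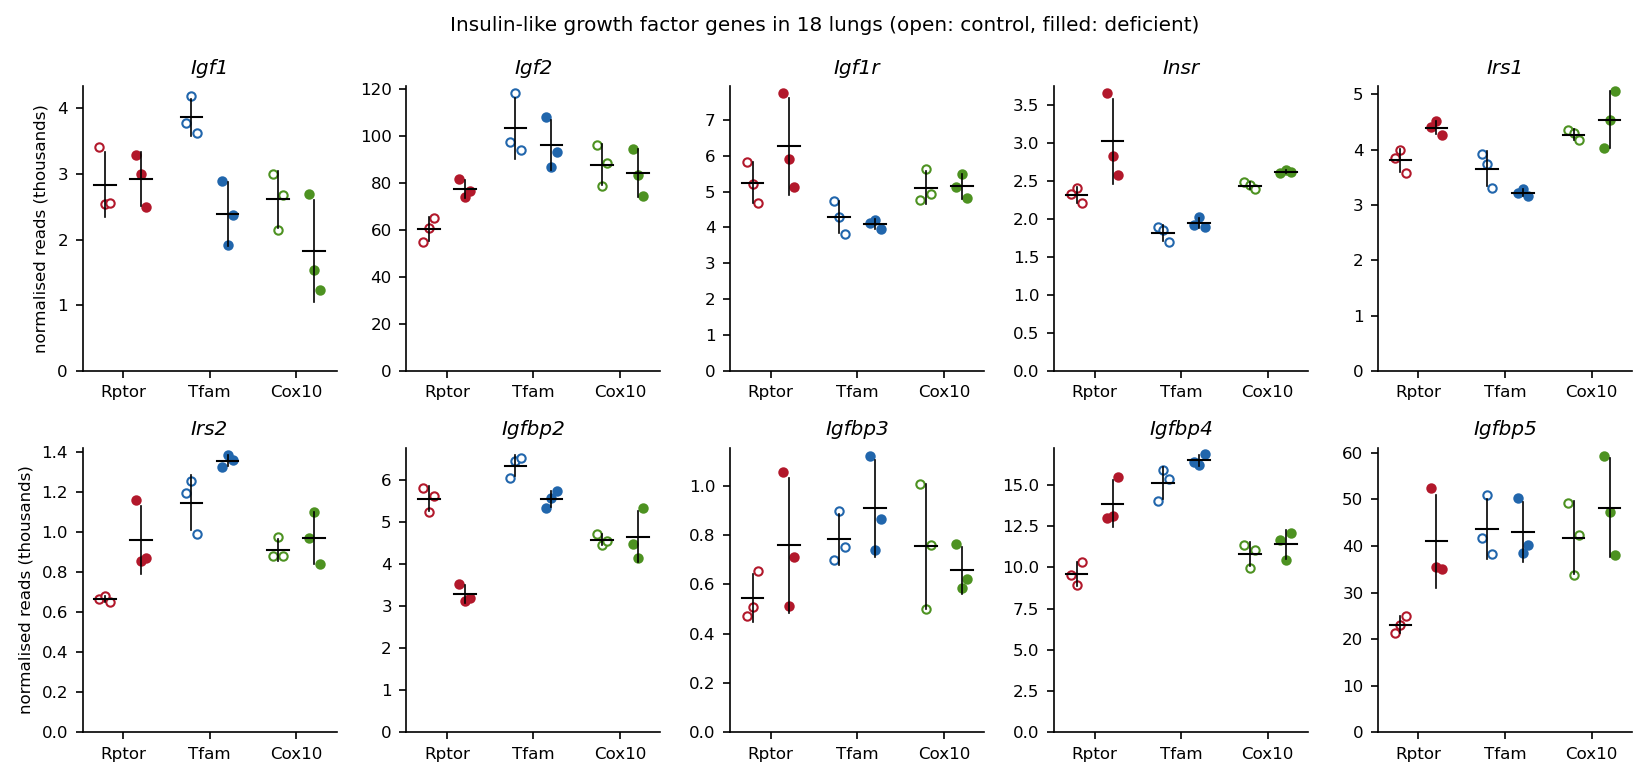
Normalised reads (y axis from 0, in units of 1000 reads) of the 10 genes in each of the 18 samples, by line, with controls open and deficient lungs filled; horizontal lines are means and vertical lines SDs over 3 samples. Igfbp2 in the Rptor line lay between 3114 and 3519 in deficient lungs, all below the controls, and Igfbp5 lay between 35057 and 52478, all above the controls.

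The makeup of the binding protein transcripts can be given without any choice of scaling, as the share of each in their summed reads per kb. Igfbp2 made up 34.9%, 32.0% and 31.1% of the 4 binding proteins in Rptor controls and 13.7%, 15.7% and 15.3% in deficient lungs. Igfbp5 made up 39.5%, 43.3% and 42.7% in controls and 62.8%, 55.0% and 51.6% in deficient lungs. Control and deficient lungs were apart for both shares. The Igfbp5 to Igfbp2 ratio per kb was 1.29 ± 0.13 in Rptor controls and 3.82 ± 0.67 in deficient lungs of that line (SD, n = 3 each), with an exact two-sided permutation p of 0.1, the lowest that 3 samples against 3 can give. All Igfbp5 values lay above and all Igfbp2 values below the controls, so this separation followed from those values and is no further test. Shares of Igfbp3 (1.89% ± 0.24 against 1.99% ± 0.45, SD, n = 3) and Igfbp4 (23.6% ± 0.66 and 26.6% ± 5.06) had overlapping values. In the Tfam line the Igfbp2 share was 24.0% ± 1.93 and 21.3% ± 2.12, and in the Cox10 line 20.6% ± 2.27 and 19.1% ± 4.06, with overlapping values and exact permutation p-values of 0.3 and 0.6. The 27 comparisons of this kind (9 quantities in 3 lines) cannot pass a correction, since none can give an exact p below 0.1.

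**Figure D3:**
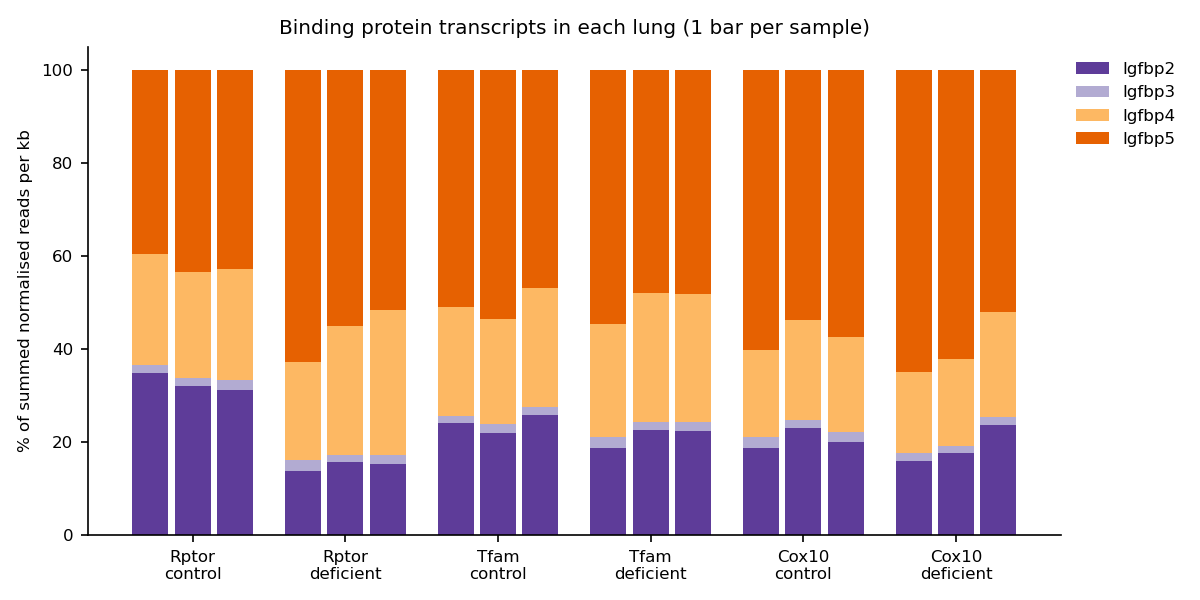
Share of each binding protein in the summed normalised reads per kb of Igfbp2, Igfbp3, Igfbp4 and Igfbp5, 1 bar per sample, as a percentage. The Igfbp2 share was 31.1% to 34.9% in Rptor controls and 13.7% to 15.7% in Rptor-deficient lungs, and its ranges overlapped in the other lines.

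Loss of Tfam was accompanied by a fall of a single IGF gene, the ligand Igf1, with 4.66% of all 15053 genes passing in this line. Igf1 was 3775, 4185 and 3633 normalised reads in Tfam controls and 2893, 1917 and 2374 in deficient lungs. The groups were apart, and the log2 change was -0.71 (SE 0.12; limma adjusted p = 0.00712), -0.77 on the mesenchymal scale and between -0.85 and -0.56 when a sample was left out. In a single fit of all 18 samples, in which the lines share their estimate of the spread, the adjusted p was 0.1. Its antisense gene Igf1os is not a row of the tables. Epithelial markers summed to 25771 to 27119 in Tfam controls and 20476 to 23132 in deficient lungs, smooth muscle markers to 22839 to 26243 and 17940 to 21354, and mesenchymal markers to 209360 to 266490 and 233340 to 279270. Heart muscle markers, with 1 of 4 called, summed to 2685 to 7108 in controls and 4706 to 14188 in deficient lungs, and cartilage markers, with 1 of 3 called, to 2237 to 2752 and 1435 to 1924. Their part in the result was not tested.

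The other 9 genes did not pass in the Tfam line, and the median over the 10 was -0.041. For 4 of them the groups were nevertheless apart, which makes 5 of 10 with Igf1, against 22.8% of all genes. Igfbp2 was 6045, 6443 and 6514 in controls and 5333, 5565 and 5724 in deficient lungs (log2 change -0.19, SE 0.057; limma adjusted p = 0.0916). Irs1 was 3921, 3749 and 3312 in controls and 3225, 3281 and 3162 in deficient lungs (-0.18, SE 0.068; limma adjusted p = 0.189). Irs2 was 1196, 1255 and 992 in controls and 1327, 1385 and 1358 in deficient lungs, all above the controls (0.25, SE 0.085; limma adjusted p = 0.149). Igfbp4 was 14004 to 15906 in controls and 16205 to 16865 in deficient lungs, with a log2 change of 0.13. Tfam control replicate 3 was the lowest control for 7 of the 10 genes, and without it Irs1 passed with a log2 change of -0.25 (adjusted p = 0.0206). Intervals of the 5 genes whose groups overlapped all held 0: Igf2 -0.10 (95% interval -0.36 to 0.15), Igf1r -0.059 (-0.22 to 0.11), Insr 0.10 (-0.038 to 0.24), Igfbp3 0.20 (-0.11 to 0.51) and Igfbp5 -0.022 (-0.29 to 0.25).

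In the Cox10 line none of the 10 genes passed, with 0.475% of all 14937 genes passing, and their median log2 change was 0.046. Insr was the only member with an unadjusted p under 0.05, and the only one whose groups were apart, against 21.3% of all genes. It was 2391 to 2484 in controls and 2606 to 2644 in deficient lungs (log2 change 0.10, SE 0.043; limma adjusted p = 0.366). Igf1 was 3005, 2151 and 2685 in controls and 2700, 1537 and 1239 in deficient lungs. Deficient replicate 1 fell within the control range and the other two lay below it, so the groups overlapped (log2 change -0.59, SE 0.26, 95% interval -1.19 to 0.021; limma adjusted p = 0.394). Without Cox10 deficient replicate 1 it was -0.91 (adjusted p = 0.0678) and without deficient replicate 3 it was -0.35 (adjusted p = 0.526). The 4 binding proteins had log2 changes between -0.15 for Igfbp3 and 0.20 for Igfbp5, each with a 95% interval that held 0.

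**Figure D4:**
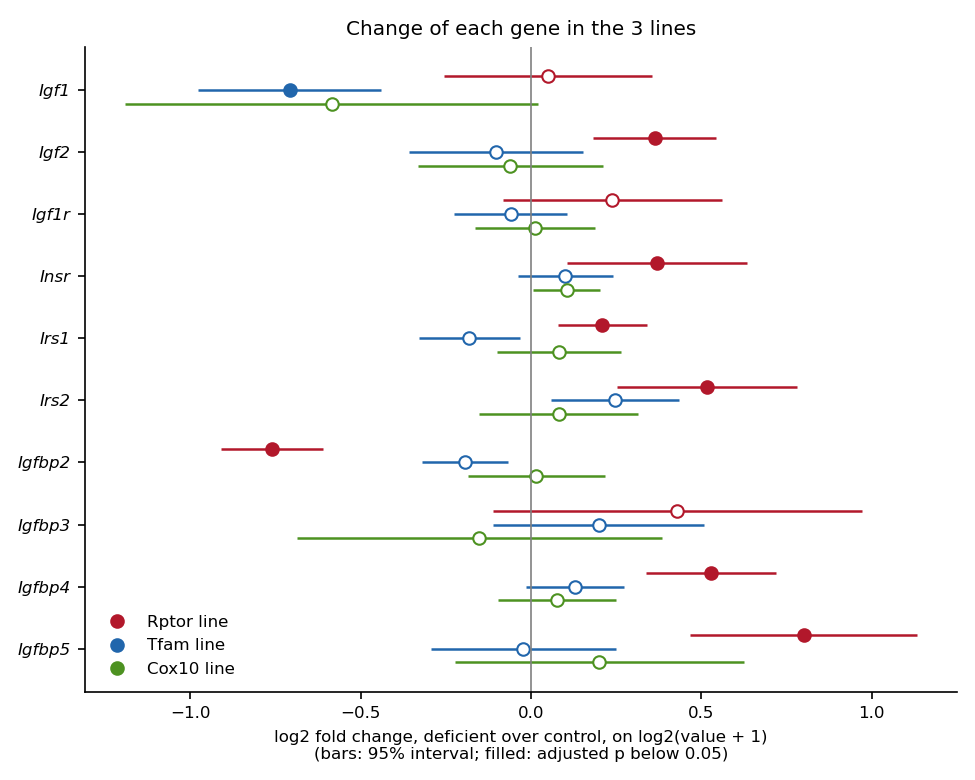
Log2 change of each gene, deficient over control, on log2(value + 1), in the Rptor (red), Tfam (blue) and Cox10 (green) lines, with 95% intervals; filled points passed at a limma adjusted p below 0.05. In the Rptor line 7 genes passed, of which Igf2, Insr, Irs1 and Irs2 changed sign when samples were scaled to mesenchymal markers, and in the Tfam line Igf1 passed at -0.71.

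A call in one line and not in another is no difference, so the effects were compared directly in a fit of all 18 samples. The Rptor effect differed from the Tfam effect for 4 of the 10 genes, where 11.2% of all 14550 genes differed. These were Igfbp2 (difference in log2 change -0.57, SE 0.11; limma adjusted p = 0.00277), Irs1 (0.39, SE 0.10; adjusted p = 0.0218), Igfbp4 (0.40, SE 0.11; adjusted p = 0.0309) and Igfbp5 (0.82, SE 0.25; adjusted p = 0.0440). On the mesenchymal scale Igfbp2 alone still passed, as lower, where 8349 of all 14568 genes did so and the median difference was -0.46. Igfbp4 and Irs1 turned to -0.062 and -0.071 there. The Igf2 effects differed by 0.46 (adjusted p = 0.0697) and those of Igf1 by 0.76 (SE 0.31; adjusted p = 0.118), and neither passed. The Igf2 difference passed without Tfam control replicate 3 (0.53, adjusted p = 0.0426) or Tfam deficient replicate 1 (0.55, adjusted p = 0.0427). With the replicate block 6 genes passed, as Igf1 (adjusted p = 0.0394) and Igf1r (adjusted p = 0.0409) joined these 4, but that fit also pairs the Tfam samples by number, which their deviations do not bear out. In that fit 1015 of all 14550 genes passed as higher and 1303 as lower, against 702 and 924 without the block. From the Cox10 effect the Rptor effect differed for 2 genes, where 7.48% of all genes differed: Igfbp2 (-0.78, SE 0.11; adjusted p = 0.000306) and Igfbp4 (0.45, SE 0.11; adjusted p = 0.0202). Without Cox10 deficient replicate 1 the Igf1 difference passed as well (0.96, adjusted p = 0.0194). On the mesenchymal scale the Igfbp4 difference from Cox10 was 0.064 (limma adjusted p = 0.680). Igfbp2 passed as lower there, where 7256 of 14568 genes did. These comparisons share the Rptor samples. Leaving out any single sample kept Igfbp2 past the threshold in both, in 12 of 12 fits each, whereas against Tfam Irs1 passed in 8 of 12, Igfbp4 in 5 of 12 and Igfbp5 in 4 of 12, with highest adjusted p-values of 0.0600, 0.0864 and 0.121, each without Tfam control replicate 2. Igfbp4 against Cox10 passed in 8 of 12, with a highest adjusted p of 0.0623 without Cox10 control replicate 1. The Tfam and Cox10 effects did not pass as different for any of the 10 genes in limma (0.055% of all genes did), with 1 gene, Irs1, at an unadjusted p under 0.05. Their Igf1 effects differed by -0.12 (95% interval -0.77 to 0.52), an interval too wide to place them.

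Outside the cell, IGF availability is also set by further carriers, proteases and receptors, of which 14 were listed and 9 could be tested. In Rptor-deficient lungs 5 of the 9 passed as higher and none as lower. Igfbpl1 is one of them and met the filter on low values only through the deficient lungs, where it was high. Of the other 8 genes 4 rose, against 34.8% of all genes in this line that passed in either direction, and their median log2 change was 0.67. Pappa, the protease that cleaves IGFBP4, went from 1010 ± 39.0 to 2076 ± 387 normalised reads (SD, n = 3), a log2 change of 1.02 (SE 0.12; limma adjusted p = 0.000502). Pappa2, a related protease that cleaves IGFBP5, went from 1175 ± 151 to 2849 ± 448 (1.27, SE 0.12; limma adjusted p = 0.000262). Igfbpl1, a scarce relative of the binding proteins, was 12.0, 7.99 and 14.9 in controls and 27.5, 30.7 and 37.6 in deficient lungs. The remaining 2, named after their values were seen, were Stc1, a secreted inhibitor of these proteases (0.95), and the binding protein Igfbp6 (0.81). On the mesenchymal scale Pappa, Pappa2, Stc1 and Igfbp6 kept a positive sign, and Pappa (0.51) and Pappa2 (0.75) still passed, where 2.93% of all genes rose. Igf2r (-0.42, adjusted p = 0.000939) and Htra1 (-0.52, adjusted p = 0.0444) passed as lower there, where 69% of all genes did and the median of all genes was -0.51; Htra1 was named after its values were seen. The Rptor effect on Pappa differed from that of Tfam by 0.78 (adjusted p = 0.00194) and from that of Cox10 by 0.78 (adjusted p = 0.00236), and the effect on Pappa2 by 0.89 (adjusted p = 0.00198) and 1.11 (adjusted p = 0.000396).

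In Tfam-deficient lungs Stc2 and Stc1 rose among these 9 genes, where 4.66% of all genes passed. Stc2, a stanniocalcin that inhibits PAPP-A and is known as a stress-induced gene, went from 131 ± 1.69 to 475 ± 33.9 normalised reads (SD, n = 3), a log2 change of 1.85 (SE 0.096; limma adjusted p = 1.53e-06). Stc1 went from 265 ± 20.6 to 434 ± 27.9 (0.71, SE 0.094; limma adjusted p = 0.00144). In the single fit of all 18 samples the adjusted p of Stc1 was 0.0964. The Rptor effect on Stc2 was 0.29 (SE 0.28; adjusted p = 0.451) and differed from that of Tfam by -1.55 (adjusted p = 0.00705). None of the 9 passed in the Cox10 line, where 0.475% of all genes did. Stc2 was 123 ± 16.1 in controls and 223 ± 60.8 in deficient lungs (0.83, SE 0.20; limma adjusted p = 0.162). The clearance receptor Igf2r did not pass in any line on the deposited scale, with 20684 to 29921 normalised reads as group means. Ins1, Ins2, Igfbp1, Igfals and Insrr had group means of at most 14.9 and were not tested on the deposited scale.

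**Figure D5:**
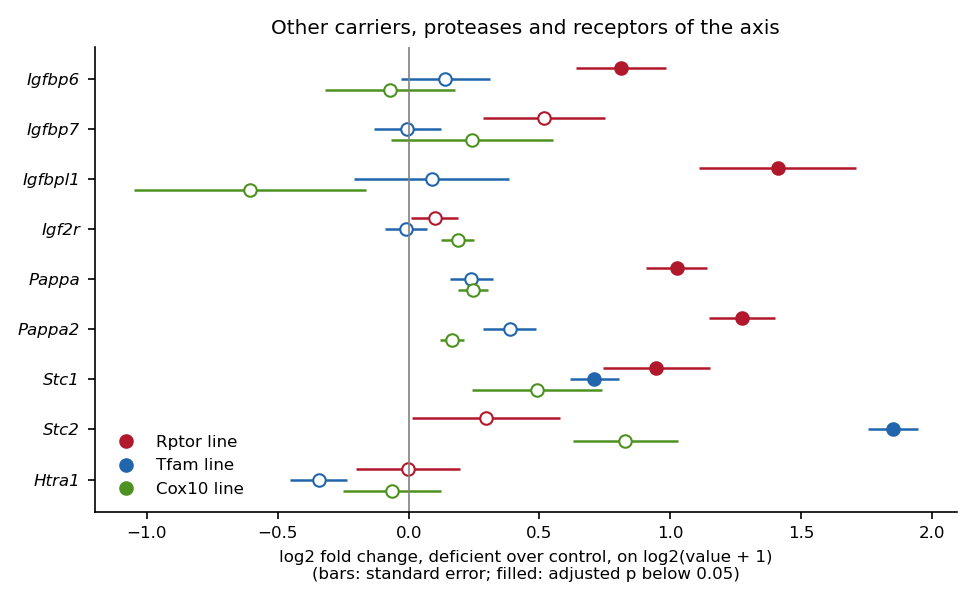
Log2 change of the 9 tested carriers, proteases and other receptors of the axis, deficient over control, on log2(value + 1), in the Rptor (red), Tfam (blue) and Cox10 (green) lines, with standard errors; filled points passed at a limma adjusted p below 0.05. Pappa and Pappa2 rose by 1.02 and 1.27 in the Rptor line, and Stc2 rose by 1.85 in the Tfam line.

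Igf2 belongs to the imprinted growth genes, which were read together with the RNA-binding proteins of Igf2 mRNA in a list of 15 genes. In the Rptor line 6 rose and 2 fell, 8 of 15 beside the 34.8% of all genes, with a median of 0.13. The largest rises were those of Meg3, a maternally expressed noncoding RNA (0.89, SE 0.096; limma adjusted p = 0.000396), its paternally expressed neighbour Dlk1 (0.70, SE 0.11; adjusted p = 0.00177) and Sgce (0.47, SE 0.092; adjusted p = 0.00542). Peg10 (-0.36, SE 0.084; adjusted p = 0.0120) and Grb10 (-0.31, SE 0.077; adjusted p = 0.0144) fell, the latter encoding an adaptor that restrains the insulin and IGF1 receptors. On the mesenchymal scale Meg3 alone rose and 9 of the 15 fell, where 69% of all genes fell, with Sgce at -0.049. H19, which lies beside Igf2 and shares its control region, was at 0.13 (SE 0.088; limma adjusted p = 0.278). Meg3 also rose in the Tfam (0.54, SE 0.062; adjusted p = 0.000604) and Cox10 lines (0.42, SE 0.062; adjusted p = 0.0365), where it was 0.29 (adjusted p = 0.341) on the mesenchymal scale in the latter, and Dlk1 rose in the Tfam line (0.31, SE 0.076; adjusted p = 0.0472), with 0.25 (adjusted p = 0.0890) on the mesenchymal scale.

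Of 27 genes between the receptors and AKT inside the cell, 26 were tested, and 3 rose and 2 fell in the Rptor line with a median of 0.027, against 34.8% of all genes that passed. On the mesenchymal scale none of the 26 rose and 22 fell, with a median of -0.49, where 69% of all genes fell. Pik3cd, a catalytic subunit of phosphoinositide 3-kinase (0.38, SE 0.097; limma adjusted p = 0.0166), the adaptor Shc1 (0.36, SE 0.052; adjusted p = 0.00143) and Akt2 (0.35, SE 0.054; adjusted p = 0.00186) rose on the deposited scale, and stood at -0.13, -0.16 and -0.17 on the mesenchymal one. Grb14, which inhibits the insulin receptor (-0.58, SE 0.097; adjusted p = 0.00266), and the phosphatase gene Ptpn1 (-0.28, SE 0.084; adjusted p = 0.0313) fell. None of the 26 passed in the Tfam or the Cox10 line, where 4.66% and 0.475% of all genes did, so that few or no calls among 26 genes match the shares of all genes. Against the Tfam effect the Rptor effect differed for Grb14 (-0.51, adjusted p = 0.0220), Shc1 (0.34, adjusted p = 0.0108) and Akt2 (0.32, adjusted p = 0.0111), and against the Cox10 effect for Grb14 (-0.63, adjusted p = 0.00815) and Akt2 (0.31, adjusted p = 0.0130) but not Shc1 (0.22, adjusted p = 0.09996). Pik3cd and Ptpn1 did not pass in either comparison. On the mesenchymal scale Shc1 was -0.038 in the Tfam line, and Akt2 was -0.021 in the Tfam and -0.091 in the Cox10 line. The Rptor values of Shc1 and Akt2 given above were thus the lower ones on that scale. Grb14 kept its direction, at -1.10 in the Rptor, -0.13 in the Tfam and -0.083 in the Cox10 line.

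The ratio of the ligands, like the shares above, does not depend on scaling. Igf2 exceeded Igf1 per kb by 46.1 ± 2.37-fold in Tfam controls and 70.3 ± 7.26-fold in deficient lungs (SD, n = 3; values apart, exact permutation p = 0.1), by 58.5 ± 4.21 and 86.2 ± 22.8 in the Cox10 line (overlapping, exact p = 0.2) and by 37.7 ± 8.74 and 46.3 ± 6.03 in the Rptor line (overlapping, exact p = 0.3). By replicate number the Rptor ratio went from 27.8 to 42.8, 41.4 to 42.8 and 44.1 to 53.2, and no paired test was run. Irs1 to Irs2 per kb was 2.21 ± 0.13 in Tfam controls and 1.64 ± 0.035 in deficient lungs, and 3.95 ± 0.13 and 3.22 ± 0.53 in the Rptor line, with values apart in both (SD, n = 3; exact permutation p = 0.1 each). In the Tfam line this followed from Irs1 lying below and Irs2 above all controls, and is no further test. The ratio was 3.25 ± 0.18 and 3.30 ± 0.75 in the Cox10 line, with overlapping values (exact permutation p = 1). Igf1r to Insr was 1.86 ± 0.17 and 1.69 ± 0.055 in the Rptor line and 1.93 ± 0.10 and 1.72 ± 0.029 in the Tfam line, apart in both (exact p = 0.1 each), and 1.71 ± 0.16 and 1.61 ± 0.10 in the Cox10 line (overlapping, exact p = 0.5).

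Over the 18 samples, after the mean of the controls of each line was taken off, pairs of the 10 genes had Pearson correlations between -0.81 (Igfbp2 with Igfbp4) and 0.91 (Igf2 with Igfbp5). These points share libraries and genotype, so the values describe the samples only. Among 14550 genes, the pattern most like that of Igfbp2 was that of Rpn2 (0.97), followed by Hap1 and the epithelial secretory gene Sfta2 (0.96 each). Cdon was most like Igfbp5 (0.97), Scara5 most like Igfbp4 (0.98), and the imprinted gene H19 most like Igfbp3 (0.92). Igf2 was followed most closely by Slc45a3 (0.93), Igf1 by Spsb1 (0.89), Igf1r by Zfhx3 (0.96), Insr by Med13l (0.97), Irs1 by Cerk (0.91) and Irs2 by Epha7 (0.95). The next places for Irs2 were taken by Plag1 (0.95) and the imprinted gene Plagl1 (0.94), and those for Igf1 by E130317F20Rik and Twist2 (0.86 each).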

How the data were processed

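Whole-lung RNA from 18 samples was measured by RNA-seq, with groups and replicate numbers taken from the sample titles. The authors deposited, in a table for each line, a normalised signal per gene and sample, that is, read counts divided by a size factor. All low values were whole multiples of a step of 0.978 to 1.02 per sample (within 0.02 steps), so depth was similar throughout. The submitters' processing notes name Trim Galore, HISAT2, featureCounts, DESeq2 and mm10. Columns with the authors' own fold changes and p-values were not used, and 0 columns belonged to other samples.

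Values were analysed as log2(value + 1), which understates changes of low genes. Genes that reached 10 in 3 or more of the 6 samples in a line (14940 for Rptor, 15053 for Tfam, 14937 for Cox10) were fitted with limma 3.58.1 in R 4.3.3 (lmFit, eBayes with trend), deficient against control within each table, two-sided, with Benjamini-Hochberg adjustment over all genes tested. Differences between lines were contrasts in a fit of all 18 samples, in which the separate scale of each table cancels. The script was tested on simulated data. The labels do not say that samples are separate animals, so p-values measure the spread between these samples.

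The 10 genes, the lists and the tests were chosen with earlier results of these data known. All 10 genes were named, with, per list and line, up to 3 called genes with the largest rise and fall, and the 3 genes most correlated with each member, of which some are printed; Igf2r is given for its role. Per-kb levels used the exon union of GENCODE M21 (GRCm38), whose gene positions may differ from the authors' annotation. Upstream sequences came from RefSeq.

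The replicate numbers were checked for pairing by correlating the deviations of same-numbered control and deficient samples from their group means. In the Rptor line all 3 pairs exceeded 0.1 (0.221, 0.330 and 0.259), so values with the replicate block are given there beside results whose call they change; the reported fits have no block. The alternatives tried were other scalings (trimmed mean of M-values, sample totals, mesenchymal markers), filters, a pseudocount of 0.1, a replicate block, Xist (the X-inactivation RNA, which separates the sexes) as a covariate, a joint fit, stricter thresholds, and leaving out each sample.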

Additional observations from a re-analysis of the deposited data

Results flagged for a closer look

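A test of the difference between lines, in limma over 18 samples, marked 6 effects as unequal between lines. The change of Igfbp2 in the Rptor line differed from that in the Tfam line by -0.567 and from that in the Cox10 line by -0.775 on the log2 scale. For Igfbp4 the difference was 0.399 against the Tfam line and 0.452 against the Cox10 line. Against the Tfam line it was 0.824 for Igfbp5 and 0.390 for Irs1. On the scale of the mesenchymal markers Igfbp2 still passed in both comparisons and the other 3 genes did not. On that scale 8349 of 14568 genes passed as lower for Rptor minus Tfam and 7256 for Rptor minus Cox10.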

How the results depend on the processing

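Scaling by trimmed means or sample totals, a mean of at least 50, and a pseudocount of 0.1 changed no direction or call of the 10 genes in any line, nor of the 6 of them whose differences between lines were recomputed. Of the calls given within lines for the other gene lists, Ptpn1 in the Rptor line was lost with Xist as a covariate (adjusted p = 0.0646), Stc1 (0.0964) and Dlk1 (0.187) in the Tfam line in the joint fit, and Dlk1 without the filter (0.0849). At a log2 fold change of at least 1 the counts of 7, 1, 4 and 2 genes (Rptor, Tfam, Rptor minus Tfam, Rptor minus Cox10) all became 0, and at an adjusted p below 0.01 both differences gave 1.

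When samples were scaled to mesenchymal markers, 4 genes passed in the Rptor line, of which Igfbp2 and Igfbp5 passed in the direction reported, and 1 gene, Igfbp2, passed in each difference. Of all genes 71.9% passed in the Rptor line on that scale. In the differences from Tfam and Cox10, 8349 and 7256 of 14568 genes passed as lower. In the Rptor line Igf1 (-0.47), Igf1r (-0.28), Igf2 (-0.16), Igfbp3 (-0.088), Insr (-0.15), Irs1 (-0.31) and Irs2 (-0.0019) turned negative. In the Cox10 line Igf1r (-0.12), Igfbp2 (-0.11), Igfbp4 (-0.054), Insr (-0.026), Irs1 (-0.048) and Irs2 (-0.049) did. Of the differences, Igfbp4 (-0.062) and Irs1 (-0.071) against Tfam and Irs1 (-0.26) against Cox10 turned. By construction this scaling takes the shift of the markers from every gene.

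With Xist as a covariate Insr in the Rptor line missed the threshold (0.32, adjusted p = 0.0729) and Igfbp5 in the Tfam line was 0.053. In the joint fit of all 18 samples 0 genes passed in the Tfam line. Without the filter the Igfbp5 difference between Rptor and Tfam was the same size (0.82) and its adjusted p was 0.0507. The causes were not tested.

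With the replicate number as a block, Igf1r passed in the Rptor line (8 genes in all) and Igfbp2 in the Tfam line (adjusted p = 0.0448, 2 genes in all), Igf1 and Igf1r joined the differences between Rptor and Tfam (6 in all), Meg3 in the Cox10 line missed the threshold (adjusted p = 0.0569), and no other call of the 10 genes, or of the lists within lines, changed. Over all genes the calls up and down went from 2483 and 2719 to 2784 and 2984 in the Rptor line. They went from 306 and 396 to 340 and 462 in the Tfam line, and from 21 and 50 to 10 and 38 in the Cox10 line. For Rptor minus Tfam they went from 702 and 924 to 1015 and 1303. Correlations of same-numbered samples were -0.312, -0.207 and 0.151 in the Tfam line, where the numbers do not pair the samples. They were 0.447, 0.202 and 0.049 in the Cox10 line. All of these were positive, but 0.049 lay below the 0.1 that every Rptor pair exceeded, so pairing in the Cox10 line was left undecided.

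When each sample was left out in turn, the counts ranged from 5 to 7 (Rptor), 1 to 2 (Tfam), 0 to 0 (Cox10), 1 to 5 (Rptor minus Tfam) and 1 to 3 (Rptor minus Cox10). Calls over all genes moved too. For Rptor minus Tfam, 340 of 14512 genes passed as higher and 512 as lower without Tfam control replicate 2. Without Tfam control replicate 3 these were 890 and 1368 of 14501. In the Rptor line they were 1686 and 1869 of 14807 without control replicate 2, and 2487 and 2828 of 14775 without deficient replicate 1. The Rptor minus Tfam count was 1 without Tfam control replicate 2 or Tfam deficient replicate 3, and 2 without any of the Rptor control replicates, Tfam control replicate 1 or Tfam deficient replicate 2. The Rptor minus Cox10 count was 1 without Rptor control replicate 2, Cox10 control replicate 1 or 3, or Cox10 deficient replicate 2. Signs turned for Igf1 in the Rptor line (-0.041 to 0.19), for Igf1r (-0.14 to 0.014) and Igfbp5 (-0.14 to 0.093) in the Tfam line, and for Igf1r (-0.037 to 0.083), Igf2 (-0.15 to 0.023), Igfbp2 (-0.086 to 0.095), Igfbp3 (-0.42 to 0.085) and Irs2 (-0.012 to 0.18) in the Cox10 line. Count models were not run, because whole reads could not be recovered with certainty from steps so near 1.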
